A study of Mus musculus with 2 samples.

Results

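The 5′ end of the mouse T cell receptor alpha (TRA) joining cluster, the TRAJ segments numbered 41 or more, was examined in thymic CD4 single-positive (SP) T cells. Members were the productive TRA contigs whose joining gene was called as a TRAJ segment with a number of at least 41. They were 1001 of 3782 TRA chains, 561 of 1862 in the WT library and 440 of 1920 in the Btla KO library, from 532 WT and 428 Btla KO cells. Of the 43 TRAJ segments with a chain in either library, 13 met the rule, namely TRAJ58, TRAJ57, TRAJ56, TRAJ53, TRAJ52, TRAJ50, TRAJ49, TRAJ48, TRAJ47, TRAJ45, TRAJ44, TRAJ43 and TRAJ42.

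The TRA chain of a T cell receptor is made by joining a variable (TRAV) gene to a TRAJ segment in immature thymocytes. The TRAV genes lie upstream of the TRAJ cluster, and the first joins in a cell are known to bring TRAV genes from the 3′ end of their array, nearest to the joining cluster, together with TRAJ segments at the 5′ end of theirs. Later rounds replace the first join with a more upstream TRAV gene and a more downstream TRAJ segment, so that 5′ TRAJ segments are known mainly for primary rearrangements. The join, with bases trimmed from both ends and untemplated (N) bases added between them, forms the third complementarity-determining region (CDR3), the loop that contacts the antigen peptide.

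Each genotype was represented by 1 library. The WT library came from C57BL/6J mice and the Btla KO library from C57BL/6-Btla KO mice, in which the gene of the co-inhibitory receptor BTLA is disrupted in the germline. All mice were aged 8 to 12 weeks, and the number of mice pooled in a library was not named in the sources used here. The cells were isolated from thymocytes by negative selection with a naive CD4 T cell kit, and receptor transcripts were read with the 10x Genomics V(D)J workflow, which tags each transcript molecule with a unique molecular identifier (UMI). The contig tables held no genes outside the receptor loci, so the CD4 SP identity could not be checked against marker genes.

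A TRA chain was found in 1704 of 4040 WT cells and 1798 of 5077 Btla KO cells, and the TRA contigs rested on 7697 and 6039 UMIs. Since there was no replicate of either genotype, no test between genotypes was made. Shares carry exact (Clopper-Pearson) 95% intervals and differences of shares carry Newcombe intervals built from them. Both cover counting error only, and differences between mice or library preparations cannot be told apart from genotype. The libraries had 30 cell barcodes in common, which carried 9 member chains, and without them the member share was 29.9% in WT and 23.0% in Btla KO.

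The germline sequences below show how much these segments differ in the part they give to CDR3. They were read from the GRCm38 genome, plus strand of chromosome 14, at the positions of the GENCODE M21 annotation, and capitals mark the bases up to the end of CDR3. TRAJ58 (chr14:54157280-54157342) is the most upstream segment with a chain, TRAJ52 (chr14:54165316-54165381) is among those that give CDR3 most bases, TRAJ49 (chr14:54168686-54168747) was the most used, TRAJ47 (chr14:54171800-54171856) and TRAJ43 (chr14:54174742-54174798) give the fewest bases, and TRAJ44 (chr14:54173690-54173750) has a different last codon.
TRAJ58: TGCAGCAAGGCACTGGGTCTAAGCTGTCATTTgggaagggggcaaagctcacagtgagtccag
TRAJ52: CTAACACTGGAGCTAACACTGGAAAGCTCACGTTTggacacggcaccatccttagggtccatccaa
TRAJ49: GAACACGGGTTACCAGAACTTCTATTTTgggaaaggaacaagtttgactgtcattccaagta
TRAJ47: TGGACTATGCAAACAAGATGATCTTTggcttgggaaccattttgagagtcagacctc
TRAJ44: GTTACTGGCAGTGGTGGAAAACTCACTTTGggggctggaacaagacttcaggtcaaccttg
TRAJ43: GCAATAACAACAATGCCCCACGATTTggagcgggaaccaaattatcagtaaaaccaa

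Each TRAJ segment is cut at a recombination signal on its 5′ side, made of a nonamer, a spacer of 12 bases and a heptamer. The signals of TRAJ49 (chr14:54168658-54168685) and TRAJ58 (chr14:54157252-54157279) are shown because they hold the most and the fewest matches to the consensus among the members, although each value was shared with another member. Capitals mark the nonamer at the left and the heptamer at the right.
TRAJ49 signal: GGTTTTTGTtgaggttattgtCACAGTG
TRAJ58 signal: AGTTTTTGCaaagcccttcagTGCAGTG

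Against the nonamer GGTTTTTGT and the heptamer CACTGTG, read on the plus strand at the segment's own start within 2 bases, the members matched at 11 to 15 of 16 letters, with a median of 13. The 30 other used segments also had a median of 13, with a range of 11 to 16. All 13 members ended in GTG at the cut, as did all 30 other used segments and 49 of all 60 annotated TRAJ segments (81.7%). The exact heptamer stood beside 1 of 13 members, TRAJ48, against 13 of 30 other used segments. Across the 13 members, matches and chain counts were only loosely related, with a Spearman rho of 0.19 in WT and 0.10 in Btla KO.

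The annotation lists 21 TRAJ segments numbered 41 or more, and 8 of them had no chain in either library. Taking 3 chains as the most that a count of 0 allows, the limit for each was 0.161% in WT and 0.156% in Btla KO. Of these, TRAJ61, TRAJ60, TRAJ55, TRAJ54 and TRAJ51 are annotated as pseudogenes, and TRAJ59, TRAJ46 and TRAJ41 as joining genes. Only productive contigs were deposited in the tables used here, so joins to segments that cannot be read through would not be listed. TRAJ59 matched the signal at 7 of 16 letters and TRAJ41 at 11, with an exact heptamer but only 4 of 9 nonamer letters. TRAJ46 matched at 12 letters, so both TRAJ46 and TRAJ41 lay within the range of the used members.

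The members made up 30.1% of TRA chains in WT (95% interval 28.1 to 32.3) and 22.9% in Btla KO (21.1 to 24.9). The difference, Btla KO minus WT, was -7.21 percentage points (-10.1 to -4.36), and the intervals of the libraries did not overlap. The upstream members, TRAJ50 to TRAJ58, were at 13.4% in WT (249 chains) and 11.3% in Btla KO (216 chains), a difference of -2.12 points (-4.26 to 0.00795). The downstream members, TRAJ42 to TRAJ49, were at 16.8% (312 chains) and 11.7% (224 chains), a difference of -5.09 points (-7.35 to -2.83). Thus only the downstream group had an interval that lay below 0. The intervals of both differences overlapped, however, and whether the groups differed from each other was not tested.

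The size of the difference moved with the number of UMIs behind a contig. In WT the member share was 34.0% among contigs with 1 or 2 UMIs (30.2 to 38.0), 30.1% with 3 or 4 (26.6 to 33.9) and 26.6% with 5 or more (23.2 to 30.2). In Btla KO the same classes gave 22.2% (19.5 to 25.1), 23.6% (20.4 to 26.9) and 23.4% (19.1 to 28). Among contigs with 5 or more UMIs the libraries overlapped, at -3.24 points (-8.81 to 2.54), and with at least 3 UMIs the difference was -4.86 points (-8.47 to -1.22). The part of UMI depth in the difference was not tested.

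**Figure D1:**
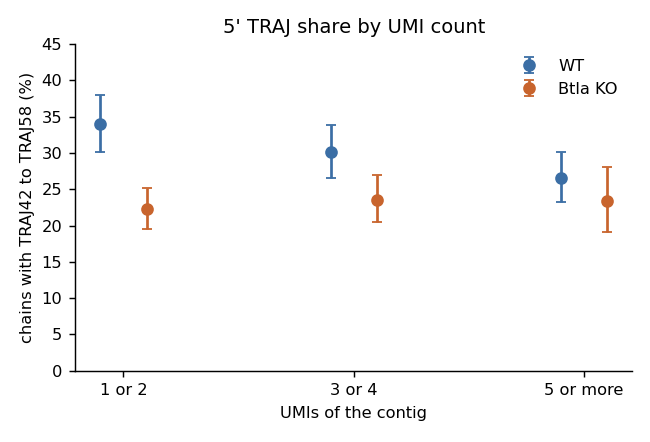
Share of TRA chains with TRAJ42 to TRAJ58 (%) by the number of UMIs of the contig, in the WT and Btla KO libraries; bars are exact 95% intervals. The WT share runs from 34.0% to 26.6% across the classes, whereas the Btla KO share lies between 22.2% and 23.6%.

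Use differed among the members, from 1.66% to 3.65% of TRA chains in WT and from 0.990% to 2.45% in Btla KO. TRAJ49, which lies beside a promoter known to open the cluster for early joins, was the most used, with 68 chains in WT (3.65%, 2.85 to 4.61) and 47 in Btla KO (2.45%, 1.80 to 3.24). TRAJ42, the most downstream member, followed with 59 (3.17%) and again 47 chains. At the low end, TRAJ47 had 31 WT chains (1.66%) and 21 Btla KO chains (1.09%), and TRAJ44 had 33 (1.77%) and 19 (0.990%).

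In WT, TRAJ50 shared the lowest count with TRAJ47, at 31 chains, and in Btla KO it had 29. The other members lay between these ends. In genome order, TRAJ58 had 45 and 43 chains in WT and Btla KO, TRAJ57 had 49 and 37, TRAJ56 had 43 and 42, TRAJ53 had 41 and 37, and TRAJ52 had 40 and 28. Further downstream, TRAJ48 had 34 and 25 chains, TRAJ45 had 42 and 37, and TRAJ43 had 45 and 28. Most neighbours in the order of use could not be separated, since the intervals were apart for 6 of 78 pairs of members in each library. In WT these pairs set TRAJ49 above TRAJ50, TRAJ48, TRAJ47 and TRAJ44, and TRAJ42 above TRAJ50 and TRAJ47. The order of the members was similar in both libraries, with a Spearman rho of 0.80 over the 13 chain counts.

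**Figure D2:**
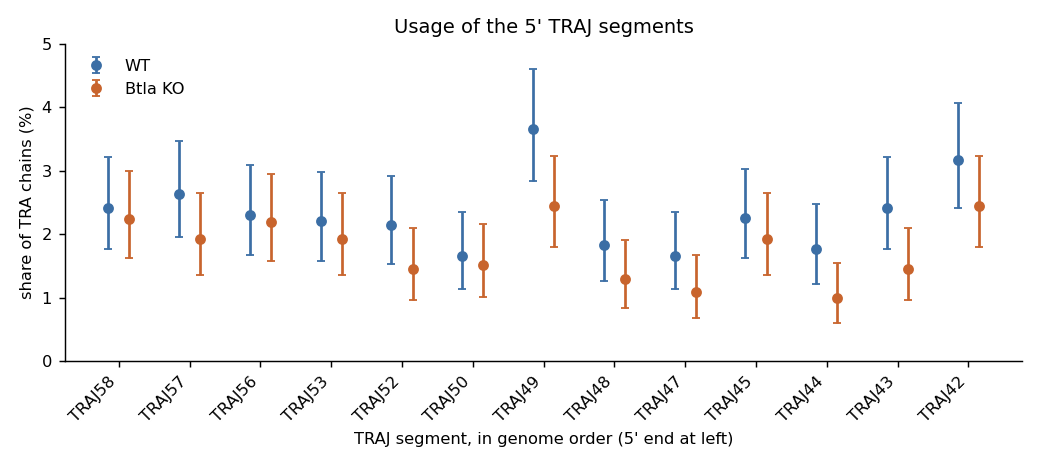
Share of TRA chains (%) that used each of the 13 segments in the WT and Btla KO libraries, in genome order; bars are exact 95% intervals. Every Btla KO point lies below its WT point, but the intervals of each pair overlap.

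Each of the 13 members had a lower share in Btla KO than in WT, but none had intervals apart between the libraries. For TRAJ49, TRAJ44 and TRAJ43 the interval of the difference itself lay below 0, at -1.20 points (-2.36 to -0.0732), -0.783 points (-1.59 to -0.00436) and -0.958 points (-1.90 to -0.0454). This was 3 of 13 members, beside 20.9% of all 43 segments. Over all 43 segments, 62.8% were lower in Btla KO and 6.98% had intervals apart, the latter being TRAJ30, TRAJ4 and TRAJ2, all outside the 5′ end. TRAJ30 was lower in Btla KO, at -1.68 points, whereas TRAJ4 and TRAJ2 were higher, at 2.43 and 3.39 points. The ratio of Btla KO to WT share had a median of 0.732 over the members (0.558 for TRAJ44 to 0.947 for TRAJ56) and of 1.04 over the 30 other segments. Because shares of a library sum to a whole, a lower share of some segments goes with a higher share of others. With contigs of at least 3 UMIs, 8 of 13 members were lower in Btla KO, and TRAJ56, TRAJ53, TRAJ50, TRAJ48 and TRAJ45 were higher, by at most 0.209 points.

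The limit of the rule did not mark a step in use. Just inside it, TRAJ42 was at 3.17% in WT and 2.45% in Btla KO, and TRAJ43 at 2.42% and 1.46%. Just outside it, TRAJ40 was at 3.17% and 2.40%, and TRAJ39 at 1.34% and 1.61%.

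The members were joined mostly to TRAV genes near the joining cluster. The span of the 89 TRAV genes with a chain was divided into 3 stretches of equal length, 482.685 kb each, and the nearest one (chr14:53393299-53875984) held 36 of these genes. This nearest stretch gave 399 of 561 member chains in WT, or 71.1% (67.2 to 74.8), and 302 of 440 in Btla KO, or 68.6% (64.1 to 72.9). Among chains with the other TRAJ segments it gave 36.4% (33.7 to 39) and 30.3% (27.9 to 32.7). The members thus exceeded the other chains by 34.8 points in WT (29.998 to 39.3) and 38.4 points in Btla KO (33.2 to 43.3), with intervals apart in both libraries. The median genomic distance between the start of the TRAV gene and that of the TRAJ segment was 552 kb in WT and 570 kb in Btla KO for member chains, and 891 and 915 kb for the others.

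The share of nearby TRAV genes fell along the joining cluster from its 5′ end. It was 79.9% in WT and 70.8% in Btla KO for TRAJ50 to TRAJ58, and 64.1% and 66.5% for TRAJ42 to TRAJ49. For TRAJ31 to TRAJ40 it was 59.2% and 54.5%, for TRAJ11 to TRAJ30 it was 29.7% and 28.8%, and for TRAJ2 to TRAJ9 it was 17.1% and 9.90%. Across the limit, TRAJ42 to TRAJ49 and TRAJ31 to TRAJ40 overlapped in WT (58.5 to 69.4 and 54.2 to 64.1). In Btla KO these groups were apart (59.9 to 72.7 and 49.2 to 59.7). TRAJ11 to TRAJ30 lay below TRAJ31 to TRAJ40 with intervals apart in both libraries, at 26.3 to 33.4 in WT and 25.5 to 32.2 in Btla KO. Over all 43 segments the segment number and the share of nearby TRAV genes had a Spearman rho of 0.92 in WT and 0.91 in Btla KO. These are descriptions over segments of the same libraries.

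Single members spread widely around these values. In WT the share of nearby TRAV genes ran from 52.4% for TRAJ45 to 87.8% for TRAJ53, and in Btla KO from 57.1% for TRAJ43 to 85.7% for TRAJ47. Within the members the relation with segment number was weaker, with a rho of 0.64 in WT and 0.30 in Btla KO over 13 segments. TRAJ45 itself had 52.4% in WT (36.4 to 68.0) and 75.7% in Btla KO (58.8 to 88.2). TRAJ53 had 87.8% (73.8 to 95.9) and 73.0% (55.9 to 86.2). The order of the members thus differed between libraries, but for both segments the intervals of the libraries overlapped. Among the 25 other segments with at least 20 chains in each library, those closest to the members' mean of 70.3% were TRAJ40 (69.5% in WT and 60.9% in Btla KO), TRAJ39 (88.0% and 64.5%) and TRAJ37 (67.9% and 53.7%). All 3 adjoin or nearly adjoin the members.

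**Figure D3:**
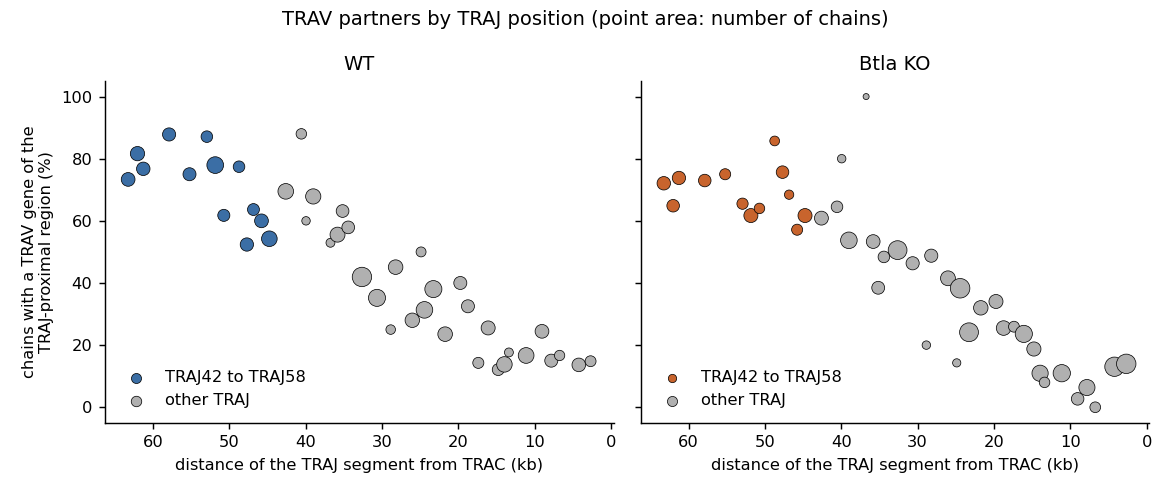
Share of the chains of each TRAJ segment (%) whose TRAV gene lies in the nearest stretch, against the distance of the segment from the constant gene TRAC (kb), for WT (left) and Btla KO (right); the area of a point grows with its chains. Members lie at the left of each panel, between 52.4% and 87.8% in WT and between 57.1% and 85.7% in Btla KO, and most other segments lie lower, although 8 of 30 in WT and 4 of 30 in Btla KO stand above the lowest member.

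Seen from the TRAV side, the member share was highest in the nearest stretch. Chains with a TRAV gene of the nearest stretch used a member in 45.8% of cases in WT (42.4 to 49.1) and 40.3% in Btla KO (36.7 to 43.9). For the middle stretch it was 14.2% (11.8 to 16.9) and 12.1% (9.93 to 14.5). For the farthest stretch it was 22.9% (56 of 245 chains, 17.8 to 28.6) in WT and 11.1% (37 of 332, 7.97 to 15.0) in Btla KO, and here the libraries were apart, at -11.7 points (-18.3 to -5.30). In WT the farthest stretch lay above the middle one, whereas in Btla KO they overlapped. Which stretch a chain is counted in depends on its TRAV call, and both gaps of the farthest stretch lost their separation under the other count of TRAV6D-6 given next.

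TRAV genes of C57BL/6 mice include duplicated blocks, marked D and N in their names, whose copies can be hard to tell apart. Of 39 annotated TRAV genes that were never called, 16 matched a called gene exactly over the last 270 bases of the last exon. For 6 of these the copies lie across the border of the farthest and middle stretches, so chains can be exchanged between those stretches. For 1 the border of the nearest stretch lies between the copies, with TRAV6D-6 in the farthest stretch and the uncalled TRAV6-6 in the nearest. TRAV6D-6 had 63 WT and 66 Btla KO chains, of which 17 and 7 used a member. Counted as TRAV6-6, these chains raised the share of nearby TRAV genes among member chains to 74.2% in WT and 70.2% in Btla KO, and the farthest stretch then used a member in 21.4% (15.70 to 28.1) and 11.3% (7.74 to 15.71). The WT interval then overlapped that of the WT middle stretch, 14.2% (11.8 to 16.9), and touched that of the Btla KO farthest stretch, although the difference between libraries remained below 0, at -10.2 points (-17.7 to -2.91).

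A member was joined to 78 of the 89 TRAV genes in WT and to 74 in Btla KO, so these segments met nearly the whole array. The shares of single TRAV genes among member and other chains had intervals apart for 13 genes in WT (14.6% of 89) and for 16 in Btla KO (18%). In WT 9 of the 13 were higher among member chains, and in Btla KO 11 of the 16, and all of these lay in the nearest stretch. In both libraries, 8 genes were higher among member chains, TRAV4-4-DV10, TRAV5-4, TRAV6-7-DV9, TRAV7-6, TRAV16, TRAV14-3, TRAV17 and TRAV21-DV12. Another 3 were lower in both, TRAV12N-2, TRAV14N-2 and TRAV3N-3, all in the middle stretch. In WT 1 gene of the nearest stretch was also lower, TRAV7-3, with 0 of its 23 chains joined to a member. In Btla KO 3 of its 21 chains were, and the intervals overlapped.

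TRAV21-DV12 (chr14:53875984-53876752), the TRAV gene closest to the joining cluster among those with a chain, was the most frequent partner. It gave 41 of 561 member chains in WT (7.31%, 5.30 to 9.78) against 5 of 1301 others (0.384%), and in Btla KO 29 of 440 (6.59%, 4.46 to 9.33) against 3 of 1480 (0.203%). Put the other way, 41 of its 46 WT chains (89.1%, 76.4 to 96.4) and 29 of its 32 Btla KO chains (90.6%, 75 to 98.0) used a member. Nearly every TRAV21-DV12 chain therefore carried a 5′ TRAJ segment in both libraries.

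TRAV6-7-DV9 was next, with 35 of its 53 WT chains (66.0%) and 24 of its 41 Btla KO chains (58.5%) joined to a member. TRAV4-4-DV10 had 31 of 54 (57.4%) and 24 of 47 (51.1%), and TRAV13-1, farther upstream in the nearest stretch, had 24 of 56 (42.9%) and 17 of 50 (34.0%). These genes fall in the order of their distance from TRAJ58, 447, 474 and 612 kb. TRAV7-6 had 20 of 22 (90.9%) and 8 of 11 (72.7%). TRAV16 had 21 of 29 (72.4%) and 16 of 18 (88.9%), and TRAV5-4 had 21 of 33 (63.6%) and 13 of 22 (59.1%). At the other end, TRAV3N-3, 874 kb from TRAJ58, had 1 of 62 (1.61%, 0.0408 to 8.66) and 3 of 62 (4.84%, 1.01 to 13.5). Among the genes of the nearest stretch with at least 20 chains, distance to TRAJ58 and the member share had a rho of -0.95 over 21 genes in WT and -0.90 over 17 genes in Btla KO.

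**Figure D4:**
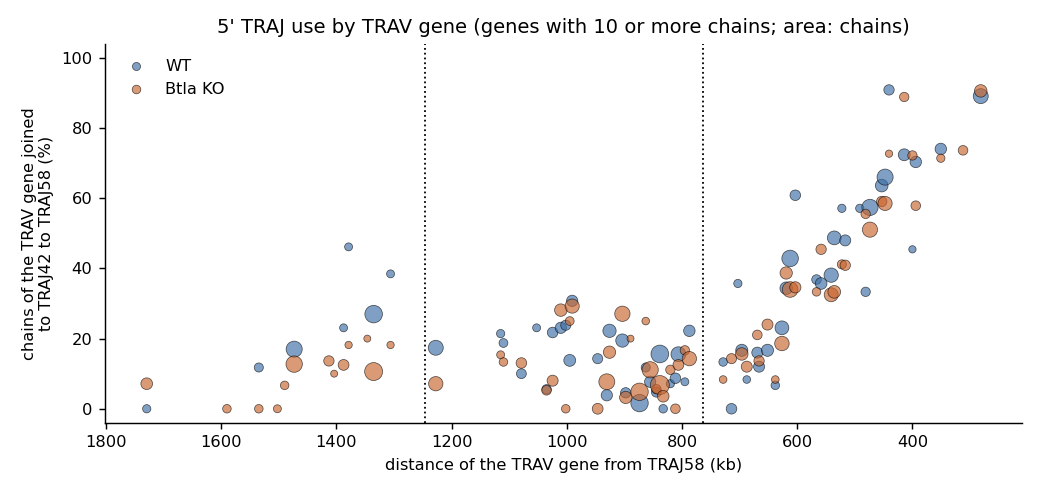
Share of the chains of each TRAV gene (%) joined to TRAJ42 to TRAJ58, against the distance of the gene from TRAJ58 (kb), for genes with at least 10 chains in a library; point area grows with the chains and dotted lines bound the 3 stretches. Points are highest at the right, within the nearest stretch, where TRAV21-DV12 stands at 89.1% in WT and 90.6% in Btla KO, and TRAV7-6 at 90.9% in WT.

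CDR3 was longer in member chains than in the others. Mean length was 14.2 amino acids (SD 1.5, n = 561 chains) in WT and 14.2 (SD 1.52, n = 440) in Btla KO, against 13.6 (SD 1.44) and 13.6 (SD 1.47) for the others. The difference was 0.592 residues (95% interval 0.446 to 0.739) in WT and 0.579 (0.418 to 0.739) in Btla KO, over chains, which are not replicates of a genotype. The median was 14 in all 4 sets. A CDR3 of 16 or more residues was found in 20.1% of member chains (16.9 to 23.7) against 8.07% of others in WT, and in 18.4% (14.9 to 22.4) against 9.05% in Btla KO.

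The germline segments differed in length in the same direction. Up to the end of CDR3 the 13 members hold 26 to 35 bases, with a median of 32, against 29 for the 30 other used segments. Weighted by use, member chains started from 2.0 more germline bases than other chains in WT and 1.90 more in Btla KO. They kept 1.53 and 1.21 more bases and lost 3.42 (SD 3.0) and 3.66 (SD 3.06), against 2.94 and 2.97 in the others. For TRAJ57 and TRAJ48 the best signal match reached 2 bases and 1 base into the annotated segment. With those bases taken off, the germline excess was 1.77 and 1.67 bases, and the excess of lost bases was 0.240 (-0.0412 to 0.521) in WT, which included 0, and 0.474 (0.166 to 0.781) in Btla KO. The TRAV gene kept 11.7 and 11.5 bases in member chains and 11.4 and 11.2 in others. Bases assigned to neither gene averaged 3.08 (SD 2.69) in WT and 3.21 (SD 2.69) in Btla KO among member chains, against 3.14 and 2.97.

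Length followed the segment. TRAJ43 and TRAJ47, with 26 bases each, had the shortest mean CDR3, 12.6 (SD 0.957) and 12.8 (SD 1.33) residues in WT and 12.3 (SD 1.28) and 12.6 (SD 1.24) in Btla KO. TRAJ52 and TRAJ53, with 35 bases each, had 15.7 (SD 1.22) and 15.3 (SD 1.10) in WT and 14.9 (SD 1.45) and 15.1 (SD 1.10) in Btla KO. Over the 13 members, germline bases and mean length had a rho of 0.91 in WT and 0.82 in Btla KO.

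**Figure D5:**
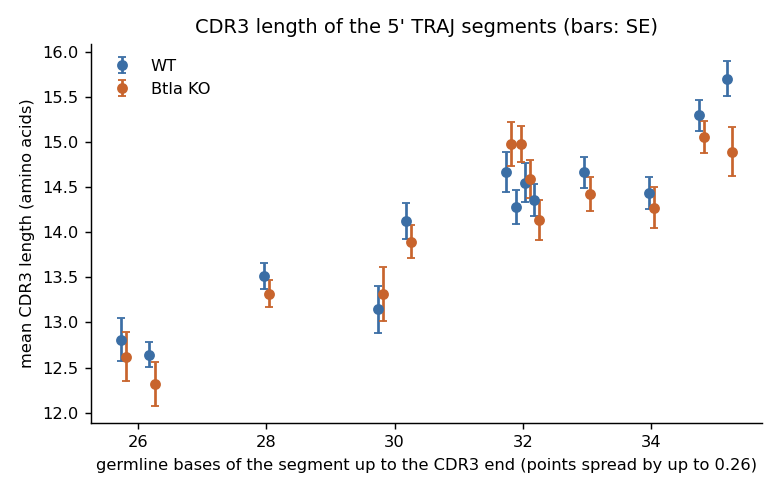
Mean CDR3 length (amino acids) of the chains of each of the 13 segments against the germline bases the segment holds up to the end of CDR3; bars are standard errors over chains, and points with the same number of bases are spread sideways. Means climb from 12.3 to 12.8 residues at 26 bases to 14.9 to 15.7 at 35 bases.

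The residues that the segments left at the end of CDR3 could be read directly from the chains. The longest ends held by at least 50% of a segment's chains over both libraries were TGYQNFYF for TRAJ49 (85 of 115 chains), SGGSNAKLTF for TRAJ42 (54 of 106), QGTGSKLSF for TRAJ58 (68 of 88), QGGSAKLIF for TRAJ57 (71 of 86) and TGGNNKLTF for TRAJ56 (70 of 85). TRAJ53 left SGGSNYKLTF (59 of 78) and TRAJ52 left TGANTGKLTF (48 of 68), so TRAJ53 and TRAJ42 share a glycine and serine stretch ahead of the same lysine, leucine, threonine and phenylalanine. The shortest segments left DYANKMIF (TRAJ47, 37 of 52) and NNNNAPRF (TRAJ43, 39 of 73).

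The remaining ends were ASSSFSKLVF for TRAJ50 (33 of 60), YGNEKITF for TRAJ48 (39 of 59), TEGADRLTF for TRAJ45 (54 of 79) and TGSGGKLTL for TRAJ44 (36 of 52). All 52 TRAJ44 chains ended CDR3 in leucine, where the other 12 segments ended in phenylalanine in all chains but 1, a TRAJ57 chain that ended in serine.

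Trimming also differed by segment. TRAJ47 kept its whole germline part in 22 of 52 chains (42.3%), whereas TRAJ45 did so in 4 of 79 (5.06%). TRAJ57 lost most bases, 6.22 in WT and 6.00 in Btla KO, a count that holds the 2 bases of its signal match. Apart from those, it kept its germline part in 9 of 86 chains (10.5%). TRAJ47 lost fewest in WT, 1.90, and 2.05 in Btla KO. With signal bases taken off, the whole germline part was kept in 21.7% of member chains in WT (18.4 to 25.4) and 19.5% in Btla KO (15.9 to 23.6), against 25.3% (22.9 to 27.7) and 24.1% (21.9 to 26.3) of other chains, and the intervals overlapped in both libraries.

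TRBV use was compared between cells with a member and cells with other TRA chains only. A TRB chain was found in 526 of 532 WT cells and 421 of 428 Btla KO cells with a member. Across 19 TRBV classes, of which 1 is the joint call TRBV12-2+TRBV13-2 that leaves the subgroup undecided, intervals between cells with and without a member chain were apart for 0 of 19 (0%) in WT and 0 of 19 (0%) in Btla KO. The interval of the difference itself excluded 0 for 2 of 19 (10.5%) in WT, TRBV13 at -3.89 points (-7.10 to -0.461) and TRBV31 at 2.28 points (0.0734 to 4.80), and for 0 of 19 (0%) in Btla KO. The largest mean difference was for TRBV13, with 61 of 568 TRB chains (10.7%, 8.31 to 13.6) beside a member in WT against 14.6% in other cells (12.7 to 16.7), and 52 of 458 (11.4%, 8.60 to 14.6) against 12.9% in Btla KO. TRBV31 stood at 6.16% against 3.88% in WT and 5.90% against 4.43% in Btla KO, and TRBV16 at 7.04% against 5.34% and 7.21% against 6.86%. The sign of the difference was the same in both libraries for 9 of 19 classes. With the joint call counted as TRBV13, that subgroup was at 17.3% against 22.9% in WT, a difference of -5.62 points (-9.51 to -1.54), and at 19.7% against 20.9% in Btla KO, -1.26 points (-5.43 to 3.19).

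In WT the member contigs rested on somewhat fewer UMIs than the others, and in Btla KO on about as many. Their median was 3 UMIs in each library, as for other TRA chains, and their mean was 3.84 against 4.26 in WT and 3.20 against 3.13 in Btla KO. Contigs with a single UMI made up 14.1% of members (11.3 to 17.2) and 13.1% of others in WT, and 19.3% (15.7 to 23.3) and 18.5% in Btla KO. By segment the median lay between 3 and 4 UMIs in WT and between 2 and 3 in Btla KO.

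A cell can rearrange TRA on both chromosomes, and 158 WT and 122 Btla KO cells held exactly 2 TRA chains. Of these, 57 and 38 had at least 1 member chain, and in 29 of the 57 (50.9%, 37.3 to 64.4) and 12 of the 38 (31.6%, 17.5 to 48.7) both chains were members. When a chain was a member, its partner was a member in 58 of 86 cases (67.4%) in WT and 24 of 50 (48.0%) in Btla KO, with each pair of members counted from both sides. When a chain was not a member, its partner was a member in 12.2% and 13.4% of cases. The segment numbers of the 2 chains differed by a median of 6 in both libraries, and in 12 cells of each library the 2 chains had the same TRAJ segment. No step was taken to find droplets with 2 cells, and their part in these pairs was not tested.

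Repeated chains were rare. The 561 WT member chains held 544 distinct combinations of TRAV gene, TRAJ segment and CDR3, of which 16 were in more than 1 cell, and the 440 Btla KO chains held 425, of which 15 were. The most frequent was TRAV8D-1 with TRAJ48 and the CDR3 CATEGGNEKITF, in 3 WT cells. Between libraries, 17 CDR3 amino acid sequences with the same member segment were shared, 3.15% of the 539 in WT and 4.10% of the 415 in Btla KO. For the other segments the shares were 6.09% of 1231 and 5.52% of 1359. Such a share grows with the number of sequences in the other library, and the member sets were smaller. The values therefore do not show whether member sequences were shared more or less often than the others.

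Of the 17 shared sequences, 4 had the same TRAV gene in both libraries. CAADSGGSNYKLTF was made from TRAV4-4-DV10 and TRAJ53 with the same bases in both, and with 0 bases assigned to neither gene. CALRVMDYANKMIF, from TRAV12-2 and TRAJ47, was found in 1 cell per library with different bases. The remaining ones joined TRAV7-4 and TRAV7D-2 to TRAJ42. Chains with a shared sequence held a median of 1 base assigned to neither gene, against 3 for the 966 other member chains, so the shared joins lay closer to the germline.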

How the data were processed

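TRA and TRB contigs of 1 WT and 1 Btla KO library of thymic CD4 SP cells were analysed. The authors assembled the contigs with Cell Ranger 7.2.0 and a GRCm38 V(D)J reference, and the deposited tables hold, for each contig, its UMI count and read count as found, with no normalization. Contig lengths were not used for a result. The deposited summary tables were not used. Every productive TRA contig of a called cell was counted once, and cells were not screened for doublets.

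Exact 95% intervals were computed with scipy 1.17.1 (Python 3.11.15, pandas 2.3.3). Germline TRAV and TRAJ sequences came from GENCODE M21 positions on GRCm38. Bases of CDR3 that matched the end of the TRAJ segment without a mismatch were counted as kept, and so from the start for TRAV. All 1862 WT and 1920 Btla KO chains matched the germline framework start after CDR3 over 20 bases. Trimming and intervals were tested on simulated data. The trimming check allowed an error of a few bases per join, which is wider than the differences in lost bases given above. It therefore cannot speak to differences of that size. Named genes were every member, TRAJ40 and TRAJ39 outside the limit, the TRAV genes with most member chains, with intervals apart in both libraries or with the largest difference, the 3 TRBV subgroups with the largest difference, the 3 other TRAJ segments most alike in TRAV partners, and CDR3s shared or most frequent. The members and lists were chosen with earlier results of these data known.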

Additional observations from a re-analysis of the deposited data

Results flagged for a closer look

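The mean number of bases assigned to neither gene differed in sign between the libraries when member chains were set against other chains, at -0.0635 bases in WT and 0.240 in Btla KO. Both intervals included 0 (-0.317 to 0.190 and -0.0354 to 0.515), and the difference between the libraries was not tested.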

How the results depend on the processing

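Of 103 comparisons of 21 results with an alternative, 89 stayed within their interval or, for a count, near it, 14 moved further, and 0 reversed. With the limit at TRAJ50 the member share was 13.4% in WT and 11.3% in Btla KO, a difference of -2.12 points. With at least 3 UMIs, 8 members were lower in Btla KO. With at least 5 UMIs, chosen after seeing the data, the WT share was 26.6% and the difference -3.24 points. With the TRAV span cut into 4 lengths, nearby TRAV genes gave 66.5% of member chains in WT and 62.7% in Btla KO, 42.2 points above other chains in WT. With TRAV subgroups that have no called D or N copy they gave 98.6% and 96.4%, 60.5 points above other chains in Btla KO. In WT the difference from other chains was smaller than in Btla KO and stayed within its interval. The genes kept here held few chains and lay in the farthest and nearest stretches only. They included TRAV11, whose annotated copies TRAV11D and TRAV11N were never called. The difference of median CDR3 lengths was 0 in both libraries. The cause of these shifts was not tested. Also chosen after seeing the data were TRAV6D-6 counted as TRAV6-6, the joint TRBV call counted as TRBV13, and signal bases taken off the TRAJ segments. No paired analysis was possible because each genotype had 1 library. Each member rested on 19 to 68 chains per library, which limits what can be seen for single members.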
